A study of Rattus norvegicus with 30 samples.

Results

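The mRNAs described here encode the enzymes, transporters and regulators that burn fatty acids in mitochondria and peroxisomes. They were chosen by name from a list of 34 genes, of which 33 had a row among the 32545 genes of the deposited table and 32 had enough reads to be tested. *Eci2* was not analysed here, and the row of *Pex5* held 3 read pairs in replicate 8 of Cx HS14, 1 in replicate 12 of Cx HS21 and 0 elsewhere, so it was counted in no comparison. Of the 34 genes, 17 were assigned to mitochondria (17 tested), 11 to peroxisomes (10 tested), 4 to both or to other sites (3 tested) and 2 are transcriptional regulators (2 tested).

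The kidneys came from male Sprague-Dawley rats with no genetic change named. The LS group ate AIN-76A diet with 0.4% NaCl, and the others were switched from it to 4.0% NaCl for 14 d (HS14) or 21 d (HS21), and the cortex (Cx) and outer medulla (OM) of the right kidney were sequenced as poly(A) RNA. There were 5 libraries per tissue and diet and 30 in all, numbered 1 to 5 for LS, 6 to 10 for HS14 and 11 to 15 for HS21. Each kidney was dissected into Cx and OM, so the tissues share rats, but no source ties a library number to a rat, and P values measure the spread between these libraries. The methods describe the HS kidneys after surgery in which a flow probe was placed on the left renal artery and catheters were kept open with heparinized saline, and do not say which sequenced rats, LS included, had it. Where the groups differed in this, surgery and diet cannot be told apart.

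Fatty acids are first joined to CoA, and long chains are then passed to carnitine to enter the mitochondrial matrix. There, repeated rounds of dehydrogenation, hydration, a further dehydrogenation and thiolysis shorten the chain, and the electrons of the first step reach the respiratory chain through the electron transfer flavoprotein. Peroxisomes shorten very long and branched chains with oxidases that hand electrons to oxygen, and they export the shortened products to mitochondria. The proximal tubule has many mitochondria and peroxisomes and relies on fatty acids as fuel, and the nuclear receptor PPARα with its coactivator PGC-1α drives many of these genes.

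Depth on genes ran from 5408126 read pairs in replicate 10 of OM HS14, the shallowest library, and 12748841 in the next to 21842843. In the paper's mapping summary replicate 10 of OM HS14 also had the lowest exonic and the highest intronic share of all libraries. The libraries followed their tissue labels: the summed level of 19 proximal tubule markers was 36000 to 39100 CPM (a gene's read pairs relative to all those of its library) in Cx LS and 3020 to 22100 in OM LS, and that of 8 thick ascending limb markers was 1850 to 2410 in Cx LS and 10600 to 23300 in OM LS. Of all markers used, *Pvalb* alone was at 0 in every library. The OM LS libraries differed from each other in these markers, and the highest proximal tubule sum (22100 CPM) belonged to replicate 2. Values that turn on that library or on replicate 10 of OM HS14 are given with and without it.

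Start-site sequences were taken from RefSeq (GRCr8) for the 30 listed genes that had an entry, from 250 bases before to 50 bases after the start. They were searched on both strands for DR1, the direct repeat of AGGTCA with 1 base between that PPARα binds together with RXR, with at most 2 mismatches. A match stood in 3 of the 30 windows, and in 1263 of all 33469 windows (3.77%). The 3 matches are shown because no other member window searched held these letters, with the matched letters in capitals and each stretch read on the strand of its gene. A match is a likeness of letters and no measured binding.
*Acadvl* (chr10:55236706-55236766, minus strand, match 17 to 5 bases before the start, 1 mismatch): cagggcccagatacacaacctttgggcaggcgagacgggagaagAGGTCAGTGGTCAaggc
*Crat* (chr3:34087266-34087349, minus strand, match 223 to 211 bases before the start, 2 mismatches): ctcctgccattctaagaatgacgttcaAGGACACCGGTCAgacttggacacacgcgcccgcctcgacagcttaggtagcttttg
*Etfa* (chr8:64788063-64788163, minus strand, match on the opposite strand 154 to 142 bases before the start, 2 mismatches): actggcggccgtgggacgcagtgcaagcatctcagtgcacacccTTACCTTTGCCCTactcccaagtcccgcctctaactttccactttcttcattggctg

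*Hadha* and *Hadhb* encode the 2 subunits of the mitochondrial trifunctional protein, and in RefSeq (GRCr8) they lie head to head on chromosome 6, with 243 bases between them. That stretch is shown because it lies between the 2 genes in that build. In the older annotation behind the counts the genes lie further apart, with the *Hadhb* end at base 27582995 and the *Hadha* start at base 27589657. Capitals mark the 193 bases that lie in the 250 bases before both starts as the RefSeq promoter table sets them. Its *Hadhb* start, at base 31907500, lies inside the end of the gene at base 31907557, from which the 243 bases are counted.
*Hadha* and *Hadhb* (chr6:31907558-31907800, read on the strand of *Hadha*): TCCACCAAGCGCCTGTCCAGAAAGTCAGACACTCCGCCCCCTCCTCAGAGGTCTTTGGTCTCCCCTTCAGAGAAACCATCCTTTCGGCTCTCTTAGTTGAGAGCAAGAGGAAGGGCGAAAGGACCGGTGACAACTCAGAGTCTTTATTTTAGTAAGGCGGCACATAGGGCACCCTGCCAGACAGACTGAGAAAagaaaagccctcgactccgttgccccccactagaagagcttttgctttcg

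Levels between genes were compared in FPKM, which divides a gene's read pairs by its length and by the library total after TMM scaling (trimmed mean of M values). In Cx LS the highest level by far was that of *Hao2*, the peroxisomal oxidase of hydroxy acids, at 3450, 3420, 3380, 3420 and 3450 FPKM. *Acsm3*, a medium-chain acyl-CoA synthetase of the mitochondrial matrix, followed at 313 to 468 FPKM, and its range did not meet that of any neighbour. Below it came *Acadm*, the medium-chain acyl-CoA dehydrogenase, at 210 to 263 FPKM, and then *Etfa*, *Acaa2* and *Etfb*, and from *Acadm* to *Etfb* each gene's range overlapped that of the next. Of the 32 tested members, the lowest levels in Cx LS were those of *Bdh1* at 10.2 to 13.1 FPKM and of *Acox2* at 1.90 to 2.58 FPKM. Of the 32 neighbouring pairs in this order, which includes *Pex5*, 23 had overlapping ranges. Summed over their genes, the mitochondrial set held 2340 to 2610 FPKM in Cx LS, and the peroxisomal set 3940 to 4030 FPKM, or 519 to 576 FPKM without *Hao2*.

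After 14 d on the HS diet, some of the fatty acid oxidation mRNAs were lower in the Cx. By edgeR's quasi-likelihood test with Benjamini-Hochberg adjustment over all genes tested, 13 of the 32 members fell and 0 rose (0 also at an unadjusted P under 0.05, by DESeq2 and by limma), where 1.18% of all genes tested fell. In 12 of these 13 every HS14 library lay below every LS library, as in 2.11% of all genes, and the exception was *Abcd3*. The 13 members that fell were 8 of the 17 mitochondrial genes, 3 of the 10 peroxisomal genes, and *Crat* and *Ech1*. The median log2 ratio was −0.22 for the mitochondrial and −0.18 for the peroxisomal set, and 0.00 for all genes. The count rests in part on calls that leaving out a single library removed, and it was lowest without replicate 4 of Cx LS, where 8 members fell. *Hadha*, *Abcd3*, *Crat* and *Etfdh* also lost the call without replicate 1 of Cx LS, and without replicate 9 of Cx HS14.

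The largest fall at HS14 was in *Eci1*, which isomerizes double bonds so that unsaturated chains can be oxidized. Its levels were 186, 125, 132, 155 and 167 FPKM in Cx LS and 76.4, 92.5, 52.6, 65.3 and 75.7 FPKM in Cx HS14, and the groups did not overlap. The log2 ratio was −1.09 (SE 0.15, adjusted P = 0.00672). *Acaa2*, a thiolase of the mitochondrial matrix, went from 265, 223, 241, 203 and 183 FPKM to 130, 114, 126, 156 and 132 FPKM. All HS14 libraries lay below the lowest LS library (log2 ratio −0.78, SE 0.10, adjusted P = 0.00672).

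*Pex11a*, which takes part in the elongation and division of peroxisomes, was 28.2, 20.3, 20.4, 27.8 and 27.5 FPKM in Cx LS. In Cx HS14 it was 12.4, 16.5, 11.9, 12 and 13.8 FPKM, all below LS, and the log2 ratio was −0.92 (SE 0.12, adjusted P = 0.00672). It was the peroxisomal member that fell most at this time. *Ehhadh*, the peroxisomal bifunctional enzyme that hydrates and dehydrogenates straight chains, was 86.2, 74.1, 76.6, 73.7 and 80.9 FPKM in Cx LS and 54.2, 61.1, 53.7, 54.5 and 45.7 FPKM in Cx HS14. Every HS14 value lay under every LS value (log2 ratio −0.56, SE 0.07, adjusted P = 0.00525).

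*Hadh*, the matrix dehydrogenase for short hydroxyacyl chains, was 169, 156, 155, 175 and 178 FPKM in Cx LS and 117, 134, 122, 111 and 105 FPKM in Cx HS14. The groups were apart (log2 ratio −0.52, SE 0.07, adjusted P = 0.00592). The other 8 members that fell changed by less, from −0.44 in *Decr1*, which reduces double bonds of unsaturated chains, to −0.22 in *Hadha*. They include *Cpt2* (−0.42, SE 0.06), which returns acyl groups from carnitine to CoA inside the mitochondrion, and *Acadl* (−0.41, SE 0.06), the long-chain dehydrogenase. In the 10 fits that each left out a library, the call of *Decr1* held in 9 (lost without replicate 4 of Cx LS, at −0.41), that of *Crat* in 7, *Etfdh* in 4, and *Abcd3* and *Hadha* in 2 each.

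*Cpt1a*, which loads long chains onto carnitine and is the regulated entry step, did not pass at HS14. Its levels were 94.9, 86.2, 72.7, 95.5 and 90.0 FPKM in Cx LS and 51.3, 90.3, 45.7, 51.7 and 49.8 FPKM in Cx HS14. Replicate 7 lay within the LS range and the other HS14 libraries well below it, and the log2 ratio was −0.62 (SE 0.17, adjusted P = 0.0717). Without replicate 7 the log2 ratio was −0.84 and passed the threshold. DESeq2, with all libraries of both groups, also called *Cpt1a* lower, at −0.62.

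**Figure D1:**
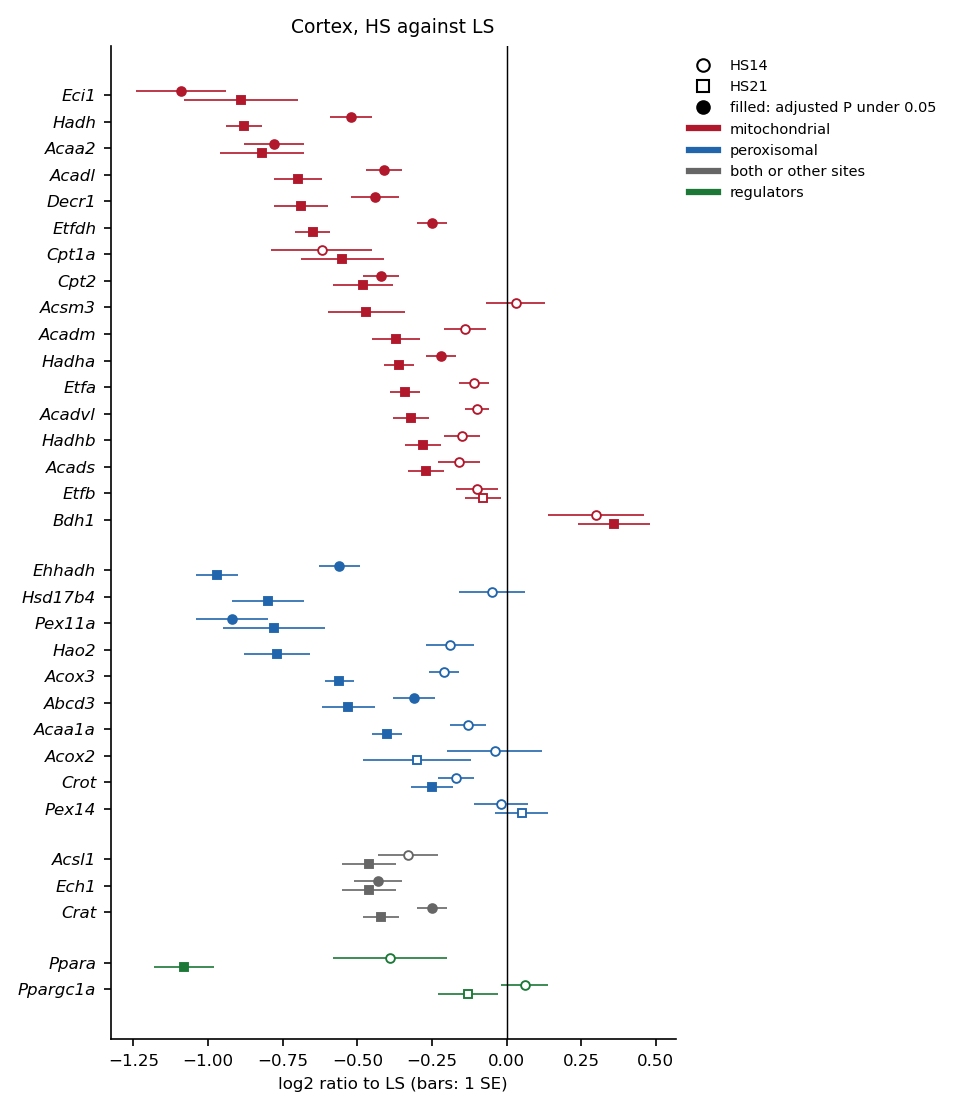
Log2 ratios of 32 genes in the Cx at HS14 (circles) and HS21 (squares) against LS, with bars of 1 SE, grouped by site and ordered by the HS21 ratio; filled symbols have an adjusted P under 0.05. At HS14 13 symbols to the left of 0 are filled and at HS21 27 are, and the only filled symbol to the right of 0 is *Bdh1* at HS21.

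After 21 d nearly the whole list was lower in the Cx. Of the 32 members 27 fell and 1 rose, where 20.5% of all genes tested fell and 18.9% rose. In 22 of the 27 no HS21 library reached the LS range, as in 13.8% of all genes. In 26 of the 27 the call held in all 10 fits without a library, and the exception was *Crot*, which lost it without replicate 14 of Cx HS21 (−0.21). Under total-count scaling (library totals without TMM), which put the median of all genes at 0.13, 24 fell, and *Hadhb*, *Acads* and *Crot* lost the call. The median log2 ratio was −0.47 in the mitochondrial and −0.54 in the peroxisomal set, against 0.00 for all genes. By role, 5 of 5 genes of activation and carnitine transfer fell, 10 of 10 of the mitochondrial spiral, 2 of 3 of the electron transfer flavoprotein pathway, 6 of 7 of peroxisomal oxidation, and 2 of 2 of peroxisomal transfer and export.

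Among the mitochondrial members *Eci1* and *Hadh* fell most at HS21. *Hadh* was 92.4, 93.8, 92.1, 83.1 and 94.4 FPKM, below all LS and all HS14 libraries, which is 54.2% of the LS level (log2 ratio −0.88, SE 0.06, adjusted P = 3.28e-06). *Eci1* was 131, 79.4, 67.4, 64.3 and 72.7 FPKM. Replicate 11 lay within the LS range, and the log2 ratio was −0.89 (SE 0.19, adjusted P = 0.00289). *Acaa2*, at 140, 129, 143, 88.5 and 139 FPKM, stayed below every LS library (−0.82, SE 0.14, adjusted P = 0.000788).

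The acyl-CoA dehydrogenases fell unequally. *Acadl*, which takes long chains, was 156, 139, 139, 145 and 159 FPKM in Cx LS and 108, 88.6, 84.6, 82.2 and 94.0 FPKM in Cx HS21, or 38.6% lower in the fit (log2 ratio −0.70, SE 0.08, adjusted P = 5.6e-05). The enzymes for very long, medium and short chains fell by less. Their log2 ratios were −0.32 (SE 0.06) for *Acadvl*, −0.37 (SE 0.08) for *Acadm* and −0.27 (SE 0.06) for *Acads*, and the difference of these ratios from that of *Acadl* was not tested.

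The electron transfer flavoprotein receives electrons from these dehydrogenases. Its α subunit *Etfa* fell (235, 234, 246, 247 and 229 FPKM in LS, 196, 196, 198, 179 and 179 FPKM in HS21, log2 ratio −0.34, SE 0.05, adjusted P = 0.000308), and *Etfdh*, the oxidoreductase that passes the electrons to ubiquinone, fell further (−0.65, SE 0.06, adjusted P = 2.31e-05). The β subunit *Etfb* did not pass the test. It was 191, 204, 193, 200 and 195 FPKM in LS and 187, 193, 212, 178 and 167 FPKM in HS21, and the groups overlapped (log2 ratio −0.08, 95% confidence interval −0.22 to 0.06, adjusted P = 0.335).

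The subunits of the trifunctional protein, with the bases between their RefSeq genes printed above, both fell at HS21. *Hadha* was 137, 129, 132, 139 and 147 FPKM in LS and 115, 111, 107, 98.1 and 105 FPKM in HS21 (log2 ratio −0.36, SE 0.05, adjusted P = 0.000364). *Hadhb* was 169, 143, 149, 150 and 168 FPKM in LS and 143, 133, 124, 121 and 127 FPKM in HS21 (log2 ratio −0.28, SE 0.06, adjusted P = 0.00418). At HS14 *Hadha* passed the threshold (−0.22, adjusted P = 0.0463) and *Hadhb* did not (−0.15, adjusted P = 0.223). Under total-count scaling the calls of *Hadhb* at HS21 (−0.15, adjusted P = 0.0771) and of *Hadha* at HS14 (−0.20, adjusted P = 0.0651) were lost.

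*Cpt1a* was 83.8, 57.7, 60.6, 46.9 and 54.3 FPKM at HS21, with replicate 11 within the LS range and the others below it (log2 ratio −0.55, SE 0.14, adjusted P = 0.00767). The other genes of activation and carnitine transfer fell by −0.42 to −0.48 on the log2 scale. They are *Cpt2*, *Crat*, which moves acetyl groups to carnitine, *Acsl1*, the long-chain acyl-CoA synthetase, and *Acsm3*. *Acsm3* did not pass at HS14 (0.03, 95% confidence interval −0.19 to 0.25) and fell from 356, 313, 427, 407 and 468 FPKM in LS to 244, 309, 350, 303 and 231 FPKM at HS21 (−0.47, SE 0.13, adjusted P = 0.0136).

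*Bdh1*, which interconverts the ketone bodies acetoacetate and hydroxybutyrate, was the only member that rose. It was 13.1, 11.3, 10.4, 12 and 10.2 FPKM in Cx LS and 14.9, 18.0, 15.9, 13.3 and 11.6 FPKM in Cx HS21, and the groups overlapped. The log2 ratio was 0.36 (SE 0.12, adjusted P = 0.0276), and the call was lost in 4 of the 10 fits without a library (Cx LS replicates 2, 3 and 5 and Cx HS21 replicate 13, with log2 ratios of 0.36, 0.33, 0.32 and 0.33).

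**Figure D2:**
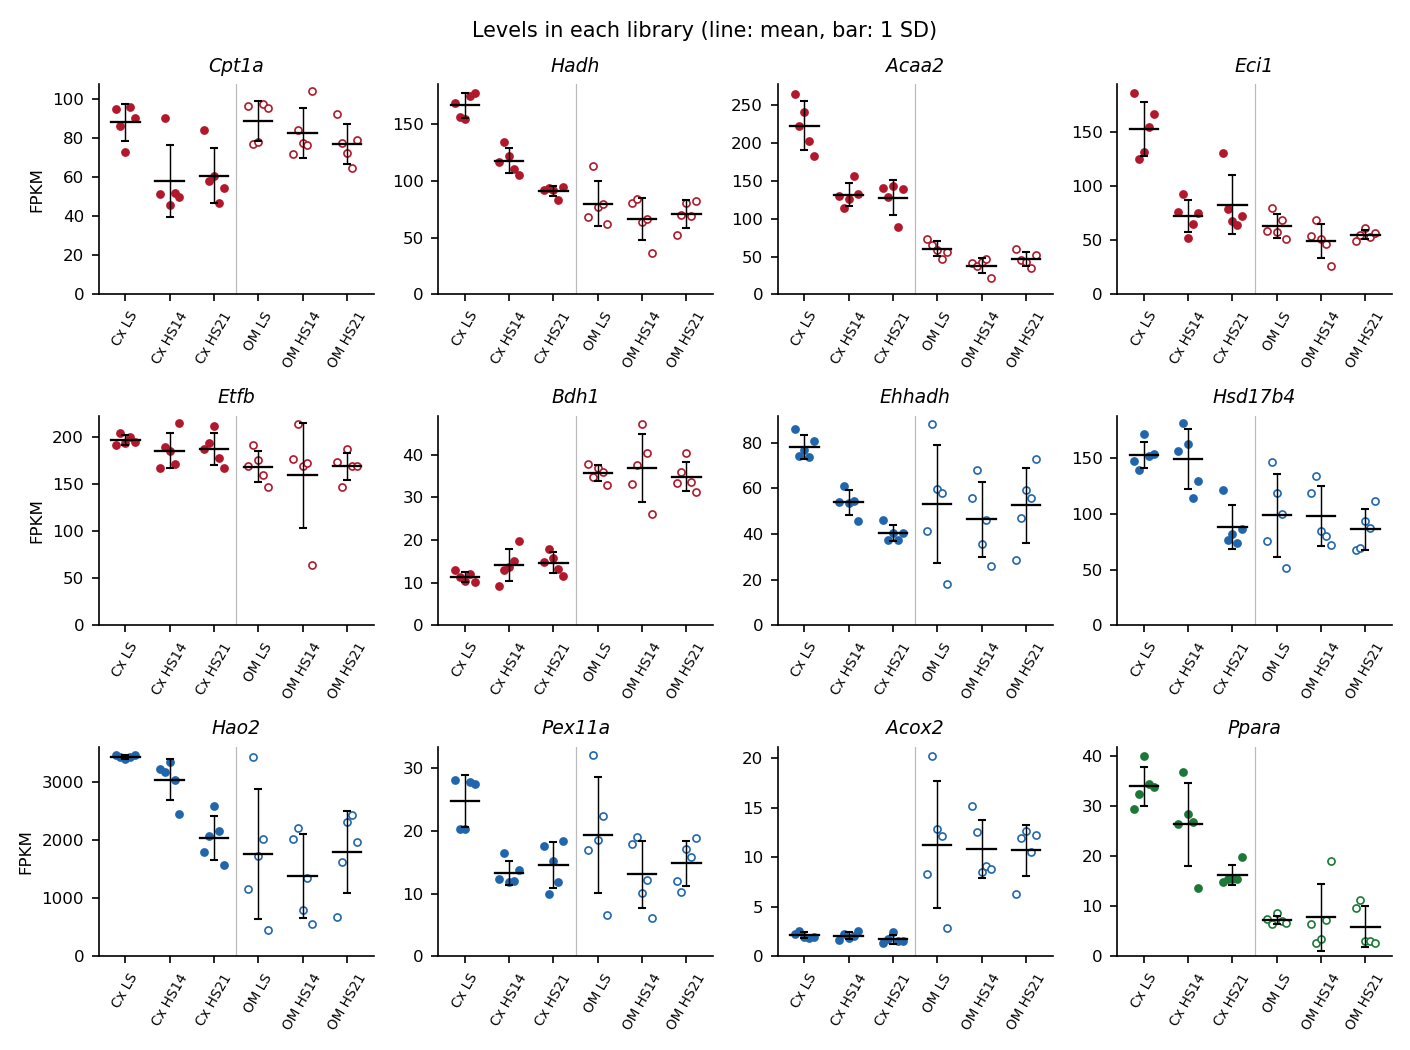
FPKM of 12 genes in each library of the 6 groups (filled, Cx; open, OM; red mitochondrial, blue peroxisomal, green regulator), with the mean as a line and 1 SD as a bar, each panel from 0. *Hadh* steps down from LS to HS14 and again to HS21 in the Cx, *Eci1* and *Acaa2* reach their low level at HS14, *Hsd17b4* and *Hao2* fall at HS21, and the OM libraries spread widely.

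Among the peroxisomal members *Ehhadh* fell most at HS21, to 46.3, 37.5, 40.4, 37.6 and 40.4 FPKM. All 5 values lay below LS, at 51.1% of its level (log2 ratio −0.97, SE 0.07, adjusted P = 5.31e-06). *Hsd17b4*, the bifunctional enzyme that serves branched chains, was 148, 140, 172, 152 and 154 FPKM in LS, 157, 182, 163, 114 and 130 FPKM in HS14 and 122, 77.0, 82.4, 74.1 and 86.7 FPKM in HS21. The HS14 libraries overlapped LS (−0.05, SE 0.11, adjusted P = 0.861), and the HS21 libraries were all below it (−0.80, SE 0.12, adjusted P = 0.00046).

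*Hao2* was 3210, 3170, 3330, 3020 and 2450 FPKM in Cx HS14. All lay below the narrow LS range, with replicate 10 furthest from it, and the log2 ratio was −0.19 (SE 0.08, adjusted P = 0.217). At HS21 it was 1790, 2060, 2580, 2160 and 1570 FPKM, and the log2 ratio was −0.77 (SE 0.11, adjusted P = 0.000386). *Acox3*, an oxidase of branched chains, was 30.8, 31.8, 32.8, 35.6 and 33.6 FPKM in LS and 23.2, 22.8, 22.6, 22.3 and 22.2 FPKM at HS21. The HS21 libraries lay close together and below all others (−0.56, SE 0.05, adjusted P = 1.56e-05).

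*Acaa1a*, the peroxisomal thiolase, fell by 0.40 on the log2 scale (SE 0.05, adjusted P = 0.000148), with the reservation that reads of its close copy *Acaa1b* may be counted with it. *Abcd3*, the membrane transporter that brings acyl chains into peroxisomes, was lower by −0.53 (SE 0.09) and *Crot*, which passes shortened chains to carnitine for export, by −0.25 (SE 0.07). *Pex11a* was 17.6, 10, 15.2, 11.9 and 18.5 FPKM at HS21, below all LS libraries (−0.78, SE 0.17, adjusted P = 0.00381). *Pex14*, part of the docking complex for imported proteins, did not pass the test (0.05, 95% confidence interval −0.16 to 0.25), nor did *Acox2*, the oxidase of bile acid intermediates (−0.30, 95% confidence interval −0.70 to 0.10). Without replicate 13 of Cx HS21 *Acox2* passed, at −0.47.

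The regulator *Ppara*, which encodes PPARα, had the largest fall of all members at HS21. It was 29.3, 32.3, 39.9, 34.3 and 33.8 FPKM in LS, 26.4, 36.7, 28.4, 26.7 and 13.6 FPKM in HS14 and 14.9, 15.5, 15.5, 15.4 and 19.9 FPKM in HS21. The HS14 libraries overlapped LS, with replicate 10 far below the others (log2 ratio −0.39, SE 0.19, adjusted P = 0.327), and all HS21 libraries lay below LS (−1.08, SE 0.10, adjusted P = 2.32e-05). In the paper's mapping summary replicate 10 had the largest intronic share of the Cx HS14 libraries, and every Cx HS21 library exceeded every Cx LS library in it. The part of that share in the *Ppara* values was not tested. *Ppargc1a*, which encodes PGC-1α, did not pass at either time (0.06, 95% confidence interval −0.11 to 0.22, at HS14 and −0.13, −0.34 to 0.09, at HS21).

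The 3 genes with a DR1 match printed above fell at HS21 by −0.32 (*Acadvl*), −0.42 (*Crat*) and −0.34 (*Etfa*) on the log2 scale. All 3 lay nearer to 0 than the median of the 32 members, which was −0.46, and whether a match goes with the size of a fall was not tested. The members that fell most, *Ppara*, *Ehhadh*, *Eci1* and *Hadh*, held no match in the window searched, which says no more than that these letters are not in it.

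**Figure D3:**
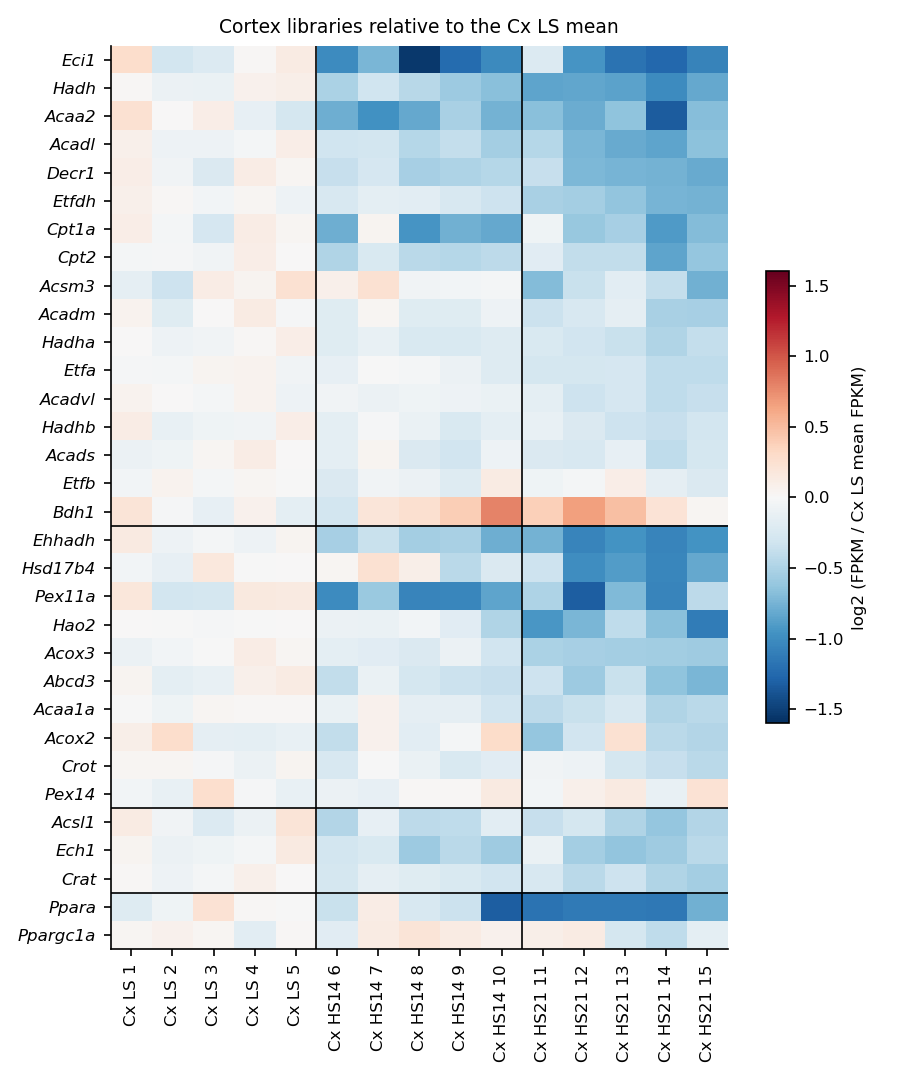
Log2 of each gene's FPKM over the Cx LS mean in the 15 Cx libraries (columns) for 32 genes (rows, by site, with lines between the sites and the groups); blue is below the LS mean and red above it. Most rows turn blue from LS to HS21, *Bdh1* turns red, and replicate 7 of HS14 and replicate 11 of HS21 are the palest columns of their groups.

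The members did not all follow the same course in time. Directly between HS14 and HS21 in the Cx, 12 of 32 members fell and 0 rose (0 also at an unadjusted P under 0.05, by DESeq2 and by limma), where 9.69% of all genes fell. A group of 4 genes, *Acadl*, *Ehhadh*, *Etfdh* and *Hadh*, was lower at HS14 than in LS and lower again at HS21. Another 9 genes were lower at HS14 and at HS21 with no call between the times, *Abcd3*, *Acaa2*, *Cpt2*, *Crat*, *Decr1*, *Ech1*, *Eci1*, *Hadha* and *Pex11a*. A further 8 genes were not called at HS14 and fell between HS14 and HS21, *Acaa1a*, *Acadvl*, *Acox3*, *Acsm3*, *Etfa*, *Hao2*, *Hsd17b4* and *Ppara*. These classes rest on the threshold and on edgeR. DESeq2 called 16 members lower at HS14, adding *Acox3*, *Acsl1* and *Cpt1a*. Between the times it called 15 lower, adding *Hadha*, *Crat* and *Decr1*.

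The largest fall between HS14 and HS21 was in *Hsd17b4* (log2 ratio −0.75, SE 0.15, adjusted P = 0.012), followed by *Ppara* (−0.69, SE 0.20, adjusted P = 0.0381), *Hao2* (−0.57, SE 0.14, adjusted P = 0.0186) and *Acsm3* (−0.50, SE 0.12, adjusted P = 0.0179). The calls held in 10 of 10 fits without a library for 6 genes (*Acox3*, *Acsm3*, *Ehhadh*, *Etfdh*, *Hadh* and *Hsd17b4*), in 9 for *Hao2* (lost without replicate 8 of Cx HS14, at −0.55), in 7 for *Etfa*, in 4 for *Acadvl*, in 3 for *Acaa1a* and *Acadl*, and in 2 for *Ppara*. For *Eci1* and *Pex11a* the interval of the change between the times included 0 (−0.24 to 0.64 and −0.23 to 0.50). The count of 12 became 6 without replicate 8 of Cx HS14, 7 without replicate 7 or 9 of that group, and 7 with total counts in place of TMM, so it is less firm than the counts against LS.

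Mitochondrial and peroxisomal members can be set side by side. At HS14 8 of 17 mitochondrial and 3 of 10 peroxisomal genes fell, at HS21 15 of 17 and 8 of 10, and from HS14 to HS21 6 of 17 and 5 of 10. The median log2 ratios of the last comparison were −0.15 and −0.26, against 0.01 for all genes. Summed levels went from 2340 to 2610 FPKM in Cx LS to 2060 to 2330 at HS14 and 1680 to 1950 at HS21 for the mitochondrial set, so that neither HS group met the LS range. The peroxisomal set held 3940 to 4030 FPKM in LS, 2890 to 3820 at HS14 and 1930 to 2960 at HS21, also outside the LS range. Without *Hao2* it held 519 to 576 FPKM in LS, 436 to 555 at HS14, overlapping LS, and 335 to 425 at HS21. No test was made between the sets, because the genes were listed with results of these data known.

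Each library can also be placed by the median of its 32 log2 values against the Cx LS mean. HS14 libraries were at −0.27, −0.11, −0.21, −0.25 and −0.30 and HS21 libraries at −0.33, −0.41, −0.37, −0.57 and −0.54, while LS libraries lay between −0.07 and 0.04. All HS21 libraries were below all HS14 libraries by this measure, and replicate 7 was the HS14 library nearest to LS. In replicate 14 of HS21 31 of the 32 genes were below the LS mean.

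Markers of cell types moved with these results in the Cx. Of 19 proximal tubule markers 2 fell and 0 rose at HS14 (median −0.17), and 19 fell at HS21 (median −0.74), among them the phosphate transporter *Slc34a1* (−0.45, SE 0.11) and the glucose transporter *Slc5a2* (−0.68, SE 0.07). Their summed level was 36000 to 39100 CPM in LS, 25800 to 37200 CPM at HS14, with replicate 10 the lowest, and 18400 to 25900 CPM at HS21. In whole tissue, fewer cells of a type and less RNA per cell cannot be told apart. At HS14 18 of the 32 members had a log2 ratio under the median of these markers, and *Eci1* and *Pex11a* lay under the lowest of them (−0.79). At HS21 8 members lay under the marker median, *Ppara*, *Ehhadh*, *Eci1*, *Hadh*, *Acaa2*, *Hsd17b4*, *Pex11a* and *Hao2*, and 0 under the lowest marker (−1.49).

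Leukocyte markers rose at the same times. Of 14, 9 rose at HS14 (median 0.78) and 14 at HS21 (median 1.83), with summed levels of 1100 to 1250 CPM in Cx LS, 1290 to 1950 CPM in HS14 and 1570 to 6160 CPM in HS21. *Ptprc*, which encodes the common leukocyte antigen CD45, rose by 0.78 (SE 0.13) and 1.86 (SE 0.26) on the log2 scale and *Cd3e*, a chain of the T cell receptor complex, by 1.88 (SE 0.35) and 3.95 (SE 0.59). At HS21 the markers of distal convoluted tubule (5 of 5 tested rose), collecting duct principal cells (5 of 6), intercalated cells (6 of 6), podocytes (4 of 5), thick ascending limb (3 of 8 rose, 1 fell), endothelium (2 of 6) and the proximal straight segment (1 of 5 rose, 2 fell) had medians of 0.79, 0.87, 0.69, 0.33, 0.39, 0.10 and 0.00. The part of these shifts in the members' ratios was not tested.

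The other genes of the same routes were listed apart from the members, and their counts stand beside the 20.5% of all genes that fell and the 18.9% that rose in the Cx at HS21. There 15 of 30 other mitochondrial genes of fatty acid and ketone metabolism fell and 4 rose (median −0.20), 23 of 44 other peroxisomal genes fell and 1 rose (median −0.33), and 10 of 22 other regulators and PPARα targets fell and 1 rose (median −0.23). At HS14, where 1.18% of all genes fell, the counts were 4 and 0 (median 0.02), 2 and 0 (median −0.11), and 3 and 0 (median −0.05). Among the genes that fell at HS14 were *Slc25a20* and *Acot2*, then *Lonp2*, then *Vnn1*, *Cyp4a2* and *Cyp4a1*, of which *Slc25a20* and *Cyp4a1* are named because of their values.

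*Acad10* and *Acot2*, an acyl-CoA dehydrogenase family member and an acyl-CoA thioesterase of mitochondria, were lower at HS21 by −0.53 (SE 0.05) and −0.77 (SE 0.08).

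The peroxisomal protease *Lonp2* and the thioesterase *Acot4* fell at HS21 by −0.60 (SE 0.06) and −0.70 (SE 0.08) on the log2 scale. PPARα targets included *Vnn1*, a pantetheinase (−1.36 at HS14 and −1.66 at HS21, SE 0.20 and 0.21), and *Cyp4a2*, a fatty acid hydroxylase whose reads may be shared with near-identical copies (−0.82 and −1.10, SE 0.13 and 0.11). *Rxra*, the partner receptor of PPARα, and the corepressor *Ncor1* fell at HS21 (−0.59, SE 0.05 and −0.52, SE 0.07). Among the genes that rose at HS21, and named because of their values, were *Acacb*, *Acsl5*, *Acot9*, *Cpt1c* and *Rxrb*, with log2 ratios of 0.85, 0.64, 0.59, 0.92 and 0.26.

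In the OM 0 of the 32 members were called at either time by edgeR. At HS14 0.00694% of all genes tested were called and at HS21 0.769%. At an unadjusted P under 0.05 there was 1 member at each time, *Acaa2*, where 826 of 14417 genes were at HS14 and 1637 of 14555 at HS21. Neither DESeq2 nor limma called any member. The medians were −0.25 and −0.13 at HS14 for the mitochondrial and peroxisomal sets and −0.17 and −0.08 at HS21, and those of all genes were −0.02 and −0.03. Without replicate 10 of OM HS14 the mitochondrial median at HS14 was −0.10, and without replicate 2 of OM LS the peroxisomal median was 0.00.

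*Acaa2* in the OM was 73.8, 65.0, 58.5, 47.3 and 56.4 FPKM in LS, 40.9, 37.4, 42.7, 47.0 and 21.2 FPKM in HS14 and 60.2, 45.0, 43.4, 34.7 and 51.8 FPKM in HS21. The HS14 libraries were all below LS, replicate 9 by little and replicate 10 by far, and those of HS21 overlapped it. The log2 ratios were −0.68 (SE 0.20, adjusted P = 0.564), or −0.54 without replicate 10 of HS14, and −0.38 (SE 0.16, adjusted P = 0.42). *Ehhadh* shows how wide the OM groups were, with 41.2, 88.4, 59.6, 58.0 and 18.3 FPKM in LS and 28.6, 46.9, 59.2, 55.6 and 72.9 FPKM in HS21, a log2 ratio of −0.05 and a 95% confidence interval from −0.87 to 0.78. The Cx value of −0.97 lies outside it, while the intervals of *Hao2* (−1.10 to 1.09) and *Acsm3* (−2.39 to 2.05) in the OM include the Cx values of −0.77 and −0.47. This leaves out the error of the Cx values. The edgeR test of the difference between the tissues, given below, did not call *Ehhadh* with all libraries (0.92, adjusted P = 0.275).

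*Ppara* in the OM was 6.43, 2.73, 3.44, 7.19 and 19.1 FPKM in HS14 and 9.58, 11.3, 3.14, 3.08 and 2.60 FPKM in HS21. Both groups reached above and below the LS libraries, with replicate 10 of HS14 the highest, and the log2 ratios were 0.10 (SE 0.47), or −0.57 (SE 0.29) without that replicate, and −0.30 (SE 0.42). *Ppargc1a* also turned at HS14 without it, from 0.14 to −0.54, and passed the test in neither fit. The OM HS14 libraries ranked alike in *Ppara*, in *Ppargc1a* and in the paper's intronic share of reads. In OM HS21 replicates 11 and 12 were the highest in all of these. The part of that share in the values was not tested. Markers moved in the OM as well. The proximal tubule markers had medians of −0.70 and −0.31 at HS14 and HS21 with 0 called at either time, and of 14 leukocyte markers 0 and 5 rose (medians 0.88 and 1.53), among them *Ptprc* at HS21 (1.70, SE 0.27). Without replicate 10 of OM HS14 the medians at HS14 were −0.62 and 0.93, and without replicate 2 of OM LS the proximal tubule medians were 0.06 and 0.38 and the leukocyte medians 0.67 and 1.33 at HS14 and HS21. Their part in the members' values was not tested.

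The OM and Cx differed in these genes on the LS diet. In OM LS 14 of 32 members were lower than in Cx LS and 2 were higher, where 19.5% of all genes were lower and 21.3% higher. Of 17 mitochondrial members 10 were lower and 1 higher, and of 10 peroxisomal members 2 were lower and 1 higher, with medians of −0.40 and −0.46. Replicate 2 of OM LS, the library with the most proximal tubule markers, weighs on these counts, since without it 22 members were lower and 3 higher and the medians were −0.59 and −0.74. The 19.5% and 21.3% of all genes belong to the fit with all libraries and are no background for these 22 and 3. Among the 8 lower members that leaving out replicate 2 added were *Hao2* (−1.37, SE 0.36) and *Hsd17b4* (−0.84, SE 0.21). The other that was higher was *Ppargc1a* (0.75, SE 0.10). With all libraries the proximal tubule markers had a median of −3.09 (15 of 19 lower, 1 higher), the straight segment markers 3.67 (4 of 6 higher, 1 lower) and the thick ascending limb markers 2.20 (7 of 8 higher), and their part in the members' values was not tested.

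Among the members lower in the OM, the largest differences were in *Acsm3* and *Ppara*. *Acsm3* was 3.70, 135, 34.8, 16.7 and 2.92 FPKM in OM LS, with replicate 2 far above the others and all below Cx LS, and the log2 ratio was −3.34 (SE 0.95, adjusted P = 0.0173), or −4.78 without replicate 2. *Ppara* was 7.46, 6.55, 8.64, 7.08 and 6.60 FPKM in OM LS, all close together and below the 29.3 FPKM of the lowest Cx LS library (−2.23, SE 0.11, adjusted P = 6.9e-07). *Acaa2* (−1.90, SE 0.14), *Eci1* (−1.28, SE 0.15), *Acaa1a* (−1.14, SE 0.16) and *Hadh* (−1.06, SE 0.16) were lower too. The calls of *Etfb*, *Acadvl* and *Decr1*, which were lower by −0.23, −0.31 and −0.75, held in 2, 7 and 8 of the 10 fits without a library. With total counts, which put the median of all genes at 0.27, *Etfb* was at 0.00 and *Acadvl* at −0.08, neither called, and *Decr1* at −0.55 (adjusted P = 0.0245). With the replicate number as a block *Etfb* lost its call (−0.24, adjusted P = 0.0712).

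*Bdh1* and *Acox2* were higher in the OM. *Bdh1* was 37.8, 34.9, 36.9, 36.0 and 32.8 FPKM in OM LS against at most 13.1 in Cx LS (log2 ratio 1.64, SE 0.08, adjusted P = 1.07e-06). *Acox2* was 8.31, 20.2, 12.8, 12.1 and 2.88 FPKM, with replicate 5 just above the highest Cx LS library at 2.58 (2.40, SE 0.42, adjusted P = 0.00126). *Cpt1a* did not differ beyond its spread, at 96.0, 76.7, 77.9, 97.1 and 95.2 FPKM in OM LS (0.00, 95% confidence interval −0.23 to 0.24). The neighbours *Hadha* and *Hadhb* were unlike here: *Hadha* did not pass (−0.05, SE 0.11, 95% confidence interval −0.30 to 0.20) and *Hadhb* was lower in the OM (−0.48, SE 0.09, adjusted P = 0.00201).

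**Figure D4:**
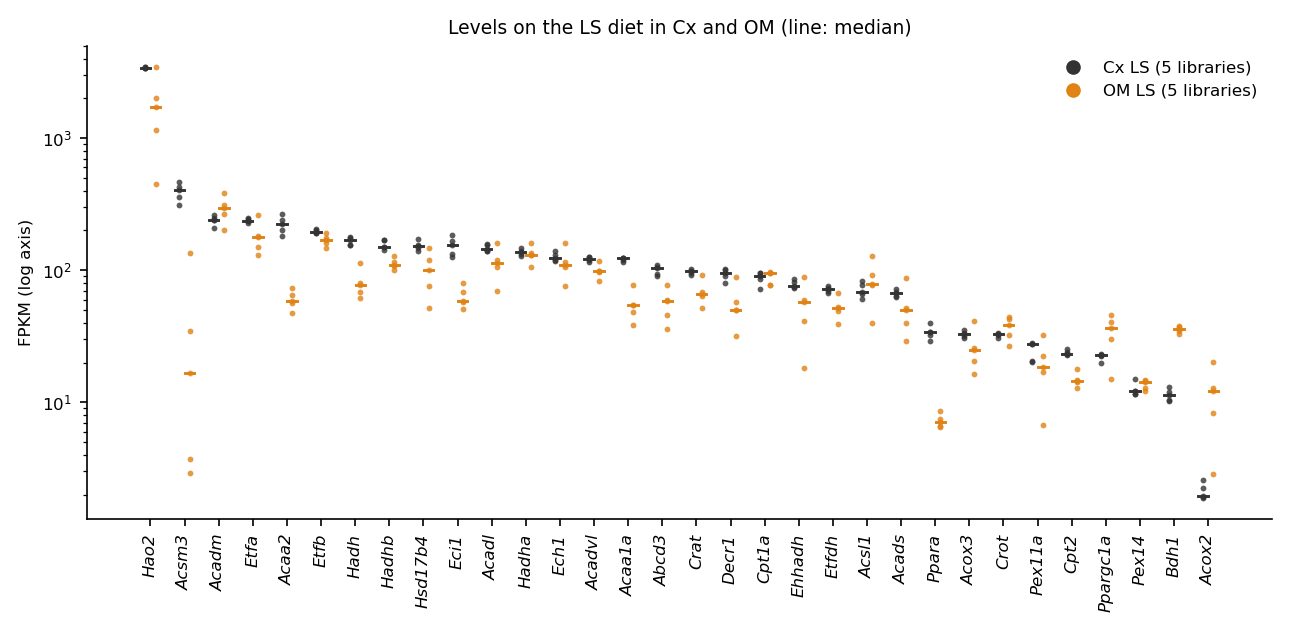
FPKM on a log axis of 32 genes in the 5 Cx LS (grey) and 5 OM LS (orange) libraries, ordered by the Cx LS mean, with the median as a line. *Acsm3*, *Acaa2* and *Ppara* lie far lower and *Bdh1* and *Acox2* higher in the OM, and the Cx points are closer together than the OM points.

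The interaction of tissue and diet compared the change at HS21 in the OM with that in the Cx. Of the 32 members 0 passed with edgeR, where 0.665% of all genes did. At an unadjusted P under 0.05 there were 9 members, 8 with a higher log2 ratio in the OM than in the Cx and *Bdh1* with a lower one. Of all 15194 genes tested 2367 were under it, 1001 higher and 1366 lower. DESeq2 called 2 members (*Hadh*, 0.70 and *Etfdh*, 0.54), with 341 raised and 199 lowered over all genes, and limma called 0 members. The median difference, OM minus Cx, was 0.30 for the mitochondrial and 0.38 for the peroxisomal set, against −0.06 for all genes and 0.59 for the proximal tubule markers, of which 0 passed. The edgeR count turned on replicate 2 of OM LS, and without it 9 members passed, *Hadh* (0.87, SE 0.15, adjusted P = 0.00328), *Etfdh* (0.66, SE 0.11, adjusted P = 0.00331), *Ehhadh*, *Eci1*, *Acadl*, *Acaa1a*, *Acox3*, *Crat* and *Cpt2*. The share of 0.665% is not the background of that fit. Calls over all genes also rose there, to the most of any fit without a library, with counts in the closing section. Of the other genes named above, *Rxra* (0.66, SE 0.14, adjusted P = 0.0318) passed the interaction test with all libraries.

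**Figure D5:**
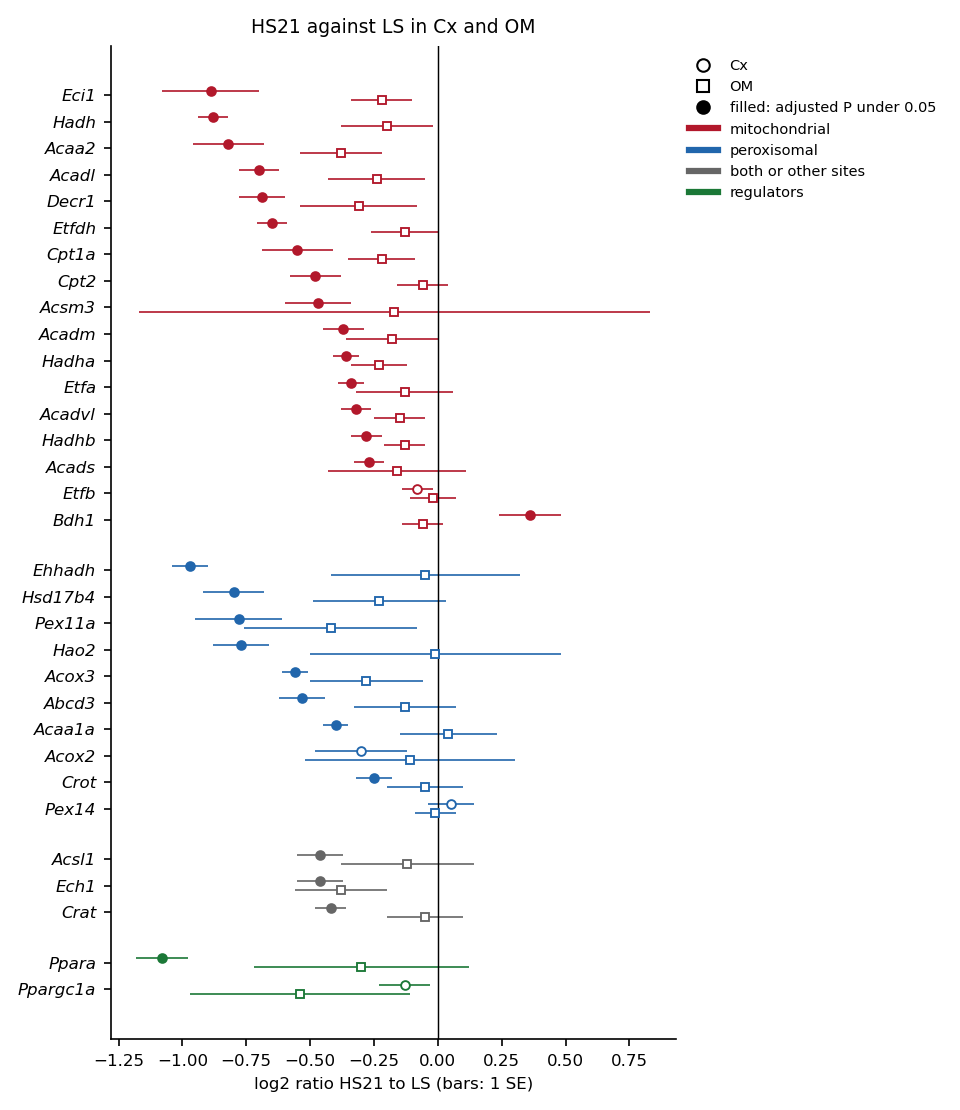
Log2 ratios of HS21 to LS for 32 genes in the Cx (circles) and OM (squares), with bars of 1 SE and filled symbols where the adjusted P was under 0.05. In the Cx 28 symbols are filled and in the OM 0, and the OM bars are the longer ones for most genes, that of *Acsm3* above all.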

How the data were processed

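RNA-seq of Cx and OM was compared between the groups of the labels. The authors aligned read pairs to Rnor_6.0 with HISAT2 2.0.5 and counted them with featureCounts 1.5.0-p3 (StringTie 1.3.3b is also listed in the submitters' processing notes), from non-directional poly(A) libraries. Counts as deposited, with no scaling, entered every test. FPKM deposited by the authors were used in 1 alternative, as log2(FPKM + 1). FPKM in the text were computed here from counts, TMM factors of the 30 libraries and the authors' gene lengths. 35 columns hold the authors' own DESeq2 comparisons and were not used.

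Each comparison was fitted on its own libraries with edgeR 4.0.16 in R 4.3.3 (filterByExpr, TMM, glmQLFit, glmQLFTest), with Benjamini-Hochberg adjustment over all genes tested and a threshold of 0.05. SE is the log2 ratio over the root of F, and 95% intervals use the t distribution of the fit. Alternatives were DESeq2 1.42.0, limma 3.58.1, total-count scaling, no filter on low counts, all libraries of a tissue in 1 fit, a replicate block, other assignments of members to sites, and leaving out each library. The scripts were tested on simulated data. Named were all members, the 4 genes of each further list with the smallest adjusted P at Cx HS21, and the first 2 proximal tubule and leukocyte markers, except that some genes of the further lists are not reported here. Members and lists were chosen with earlier results of these data known. RefSeq (GRCr8) promoters had no entry for *Acadl*, *Acaa2*, *Decr1* and *Ech1*. Totals of 5408126 to 21842843 read pairs per library and groups of 5 set the precision. In the paper's mapping summary every Cx HS21 library had a larger intronic share of reads than every Cx LS library. The part of this in the ratios was not tested.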

Additional observations from a re-analysis of the deposited data

Results flagged for a closer look

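In 192 combinations of a member and a group, the gap between the highest or lowest of the 5 libraries and the nearest other, divided by the range of the group, passed Dixon's limit of 0.71 in 14. Chance passes about 1 in 20 groups. The values in FPKM follow.

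Replicate 10 of OM HS14, the shallowest library, was low in 5 genes of the mitochondrial set, at 55.9 for *Acadvl* (others 99.9 to 110), 21.2 for *Acaa2* (37.4 to 47.0), 70.9 for *Etfa* (151 to 204), 64.2 for *Etfb* (169 to 214) and 22.6 for *Etfdh* (46.8 to 55.0). In the Cx at HS14 replicate 7 was high in both carnitine palmitoyltransferases, *Cpt1a* at 90.3 (others 45.7 to 51.7) and *Cpt2* at 20.0 (17.0 to 17.7). In the Cx at HS21 replicate 14 was low in *Hadh* at 83.1 (92.1 to 94.4) and in *Acaa2* at 88.5 (129 to 143), replicate 11 was high in *Decr1* at 72.6 (53.8 to 57.0), and replicate 15 was high in *Ppara* at 19.9 (14.9 to 15.5). In Cx LS replicate 3 was high in *Pex14* at 15 (11.5 to 12.3) and replicate 4 was low in *Ppargc1a* at 19.9 (22.6 to 23.4). In the OM at HS21 replicate 11 was low in *Acox2* at 6.29 (10.5 to 12.6).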

How the results depend on the processing

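Under the alternatives, 3539 of 3679 values of single members kept their side of the threshold, and their direction where called. Of the others, 94 lost the call and 45 gained it, and 1 called value (*Etfb* in OM against Cx) went to 0.00, not called. Of the 3539, 97 belonged to members not called and had the other sign. The 3679 include the values of OM HS14, OM HS21 and the interaction, where 0 members were called in the main fit. No call could be lost there, nor for members not called in the other comparisons. The 3539 are therefore no measure of how firm the calls were. Of 474 summary values 452 stayed within the limits set. Total-count scaling moved the median of all genes to 0.13 for Cx HS21 against LS or HS14, 0.27 for OM against Cx and −0.16 for the interaction, so changes on that scale are relative to those shifts. With it the medians at Cx HS21 were −0.34 (mitochondrial) and −0.41 (peroxisomal) with 24 members lower, those from HS14 to HS21 −0.03 and −0.15 with 7 members lower, 6 members were higher in OM than in Cx, and *Etfb* turned to 0.00 there. All 15 Cx libraries in 1 fit left 0 members raised at HS21 (*Bdh1*), members of both or other sites counted as peroxisomal gave a median of −0.46, and DESeq2 gave 2 members in the interaction. The causes were not tested.

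Leaving out each library gave 8 to 14 members lower at Cx HS14, 26 to 28 lower and 0 to 1 raised at Cx HS21, 6 to 12 lower from HS14 to HS21, 11 to 22 lower and 2 to 4 raised in OM against Cx (4 without replicate 5 of OM LS), and 0 to 9 raised in the interaction (1 without replicate 11 of Cx HS21 or of OM HS21). The mitochondrial and peroxisomal medians were −0.37 to −0.10 and −0.30 to 0.00 at OM HS14, −0.29 to −0.06 and −0.27 to 0.03 at OM HS21, −0.59 to −0.30 and −0.74 to −0.28 in OM against Cx, and 0.12 to 0.42 and 0.21 to 0.60 in the interaction.

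Over all genes DESeq2 called 500 raised and 422 lowered at Cx HS14 (edgeR 162 and 168), 90 and 20 at OM HS14 (1 and 0), 555 and 166 at OM HS21 (93 and 19) and 341 and 199 in the interaction (68 and 33). Total-count scaling called 4401 raised and 1653 lowered at Cx HS21 (2702 and 2936), 2084 and 644 from HS14 to HS21 (935 and 1395), 5546 and 1842 in OM against Cx (3051 and 2794), 35 and 9 at OM HS21 and 57 and 54 in the interaction. DESeq2 called 1469 raised from HS14 to HS21, limma 137 raised in the interaction, and no filter 10 lowered there. All libraries of a tissue in 1 fit called 83 raised at Cx HS14, 1500 raised from HS14 to HS21 and 179 raised at OM HS21. Leaving out each library gave 42 to 274 raised and 43 to 232 lowered at Cx HS14 (lowest without replicate 4 of Cx LS), 337 to 1476 and 692 to 2048 from HS14 to HS21, 9 to 159 and 0 to 31 at OM HS21, and 34 to 729 and 4 to 546 in the interaction (highest without replicate 2 of OM LS).

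With the replicate number as a block, 13 members were lower and 2 higher in OM against Cx (*Etfb* lost its call) and 0 passed in the interaction, and over all genes 2442 were raised and 2569 lowered in OM against Cx. No source says that an equal number marks the same rat, and the deviations of equal numbers correlated at −0.0904 to 0.497, over 0.1 in 9 of 15 pairs, with 11 of 15 libraries closest to their own number. All 5 pairs of HS21 lay at 0.251 to 0.497, a hint from the data, not the design, that equal numbers share a rat. Because the labels do not tie the numbers to rats, and not every pair was over 0.1, the numbers were not treated as pairs. The main fits of OM against Cx and of the interaction therefore leave out any sharing of rats.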
